A study of Mus musculus with 2 samples.

Results

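The genes described here were 8 trypsin-like serine proteases of epithelial surfaces, Tmprss11d, Tmprss11e, Tmprss4, St14, Prss8, Prss22, Prss27 and Klk10, and 2 membrane-anchored inhibitors, Spint1 and Spint2. These 10 genes were chosen by symbol from the 31053 genes of the count table, and each matched 1 row. They were followed in mouse urothelial organoids, which are multilayered structures grown in Matrigel from the epithelium that lines the bladder. One single-cell library came from proliferative organoids (NMU-O-P) kept in complete medium, which contains EGF, the TGF-β receptor inhibitor LY2157299, Noggin, WNT3A and RSPO1. The other came from differentiated organoids (NMU-O-D), first grown in that complete medium and then reseeded in medium without these factors. All mice were wild-type C57BL/6 animals of 8 to 10 weeks, and the number of animals or cultures behind each library was not given in the labels. With 1 library per condition no replicate check and no test between conditions was possible. Medium, culture and library preparation cannot be told apart, and all intervals below are 95% intervals for counting error only.

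Serine proteases of this group carry a catalytic serine, histidine and aspartate and are made as inactive precursors that need 1 cut to become active. St14 (matriptase) spans the membrane and, in many epithelia, activates and is activated by the lipid-anchored Prss8 (prostasin), a pair known for its part in barrier formation. Spint1 (HAI-1) and Spint2 (HAI-2) carry Kunitz domains that block such proteases at the cell surface and also help them traffic. Tmprss11d, Tmprss11e and Tmprss4 are type II transmembrane proteases like St14, with the amino terminus inside the cell. Prss27 (pancreasin, or marapsin) is found mainly in stratified squamous epithelia, whereas Prss22 (tryptase epsilon) and the kallikrein Klk10 are secreted, so the name membrane protease does not cover every one of the 10.

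The codons around the catalytic serine are shown because they are what defines the family. In the GENCODE transcripts of GRCm38, the build of the deposited files, 7 of the 8 proteases contained the stretch for glycine, aspartate, serine, glycine, glycine, and a search of the single coding transcript of Klk10 did not find it. The 15 bases of that stretch are in capitals below, with 6 bases on each side in lower case.
Tmprss11d: tgccagGGTGATTCAGGTGGCccgcta
Tmprss11e: tgccagGGTGACTCGGGAGGTccactt
Tmprss4: tgccagGGTGACAGTGGTGGGcctttg
St14: tgccagGGTGACTCTGGTGGCcccttg
Prss8: tgccagGGTGACTCTGGGGGCccactc
Prss22: tgtctgGGCGACTCTGGGGGTcccctg
Prss27: tgtaagGGTGACTCTGGAGGCccactg
The 7 stretches differed from each other, and 12 to 14 of the 15 capital bases of each of the others were those of St14. In all 7 the 27 bases spanned 2 exons, for example exons 18 and 19 of 19 in St14 (chr9:31090007-31090407, minus strand) and exons 9 and 10 of 10 in Tmprss11d (chr5:86303752-86306272, minus strand). These ranges include the intron between the exons. No run of 56 bases, the length of the cDNA read, was shared with another gene for 8 of the 10 genes. Tmprss11d shared 2 of 2741 such runs and St14 3 of 7882.

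After the study's filter of over 800 detected genes and at most 12% mitochondrial counts, 6818 cells with 26681469 unique molecular identifiers (UMIs, each standing for 1 captured RNA molecule) remained in NMU-O-P and 4896 cells with 20305621 UMIs in NMU-O-D. The median cell held 3405.5 and 3227.5 UMIs, and 6 barcodes occurred in both sets of kept cells. Of the epithelial genes, Krt5 had a UMI in 98.9% and 98.1% of cells and Epcam in 63.3% and 77.4%, with no cell type at hand to give a background share. Of the markers of other cell types, 5 of 6 leukocyte genes were detected in NMU-O-P and 4 of 6 in NMU-O-D, with 27 and 411 UMIs in all, of which Laptm5 made up 7 and 400. Ptprc, which defines leukocytes, had 1 and 2 UMIs and Tyrobp 0 in both. The summed fibroblast list had 53 and 1270 UMIs, of which Dcn made up 40 and 1234 while Col1a2 was at 0 in both. The part of these genes' cells in the results was not tested. Levels are given as UMIs per 1000000 UMIs of the same cells (CPM). Because 3′ reads give 1 count per molecule, this scale needs no correction for gene length. Ribosomal protein genes took 37.5% of UMIs in NMU-O-P and 21.4% in NMU-O-D, and the median of 8939 well-counted genes stood 0.42 log2 units higher in NMU-O-D. For the 9 members with at least 100 UMIs, log2 ratios between the libraries are also given relative to that shift.

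Among the 10 genes, the main difference between the 2 libraries lay in the Tmprss11 proteases, which were high in NMU-O-P and low or nearly undetected in NMU-O-D. Spint1 and St14 had higher levels in NMU-O-D without reaching 2-fold. Of the 10 genes, 9 had at least 100 UMIs over both libraries. None of these was at least 2-fold higher in NMU-O-D, where 13.5% of the 10719 genes with as many UMIs were, and 2 were at least 2-fold lower, where 4.73% of those genes were. The median log2 ratio of the 9 genes was 0.27, compared with 0.41 for all 10719.

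Tmprss11d, also called human airway trypsin-like protease or HAT in its human form, had 466 UMIs in NMU-O-P (17.5 CPM, 15.9 to 19.1) and 3 in NMU-O-D (0.148 CPM, 0.0305 to 0.432). The log2 ratio was -6.89 (-9.17 to -5.33), a 118-fold lower level with an interval from 40.2 to 575, and relative to the median gene it was -7.31. Only 7 of the genes tested had a lower ratio. The gene lies on chr5:86302217-86373420 of GRCm38 and overlaps no other annotated gene.

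Tmprss11e (DESC1), known from squamous epithelia, had 1205 UMIs in NMU-O-P (45.2 CPM, 42.6 to 47.8) and 193 in NMU-O-D (9.50 CPM, 8.21 to 10.9). Its log2 ratio of -2.25 (-2.48 to -2.03) corresponded to a 4.75-fold lower level, and relative to the median gene it was -2.67. Unlike Tmprss11d it was still detected in 3.66% of NMU-O-D cells, compared with 13.5% in NMU-O-P. It was the most abundant of the 8 proteases in NMU-O-P and the lowest but 2 in NMU-O-D.

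The other transmembrane proteases did not share this difference. Tmprss4, described mainly in carcinomas and able to activate the epithelial sodium channel, had 967 UMIs (36.2 CPM) in NMU-O-P and 663 (32.7 CPM) in NMU-O-D, a log2 ratio of -0.15 (-0.30 to -0.01). St14 had 867 UMIs (32.5 CPM, 30.4 to 34.7) and 1151 (56.7 CPM, 53.5 to 60.1), a log2 ratio of 0.80 (0.67 to 0.93). Relative to the median gene these ratios were -0.57 and 0.38. St14 was thereby the most abundant of the 8 proteases in NMU-O-D, whereas in NMU-O-P its counting interval overlapped that of Tmprss4.

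Prss8, the partner of St14, had 366 UMIs in NMU-O-P (13.7 CPM) and 352 in NMU-O-D (17.3 CPM), a log2 ratio of 0.34 (0.12 to 0.55). The level of Prss22 was 16.3 CPM from 435 UMIs and 17.0 CPM from 345, with a ratio of 0.06 (-0.15 to 0.27), and that of Prss27 was 18.5 CPM from 494 UMIs and 22.4 CPM from 454, with a ratio of 0.27 (0.09 to 0.46). These 3 genes stood within 0.34 log2 units of equal CPM, and relative to the median gene all 3 ratios were negative, at -0.08, -0.36 and -0.15. Klk10 had 6 UMIs in NMU-O-P and 2 in NMU-O-D, too few for a ratio.

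The inhibitors outnumbered the proteases. Spint1 had 3280 UMIs in NMU-O-P (123 CPM, 119 to 127) and 4215 in NMU-O-D (208 CPM, 201 to 214), a log2 ratio of 0.76 (0.69 to 0.82). Spint2 had 10068 UMIs (377 CPM, 370 to 385) and 10010 (493 CPM, 483 to 503), a ratio of 0.39 (0.35 to 0.43). Relative to the median gene the ratio of Spint1 was 0.33 and that of Spint2 was -0.04, so the direction for Spint2 depended on the scaling.

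In NMU-O-P the order of levels ran from Spint2 and Spint1 to Tmprss11e, then Tmprss4 and St14, then Prss27, Tmprss11d, Prss22 and Prss8. Intervals overlapped between Tmprss4 and St14 and between each pair of neighbours from Prss27 to Prss8. In NMU-O-D the order was Spint2, Spint1, St14, Tmprss4, Prss27, Prss8, Prss22, Tmprss11e and Tmprss11d, and only Prss8 and Prss22 overlapped among neighbours. The plot of levels by library shows the same values.

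**Figure D1:**
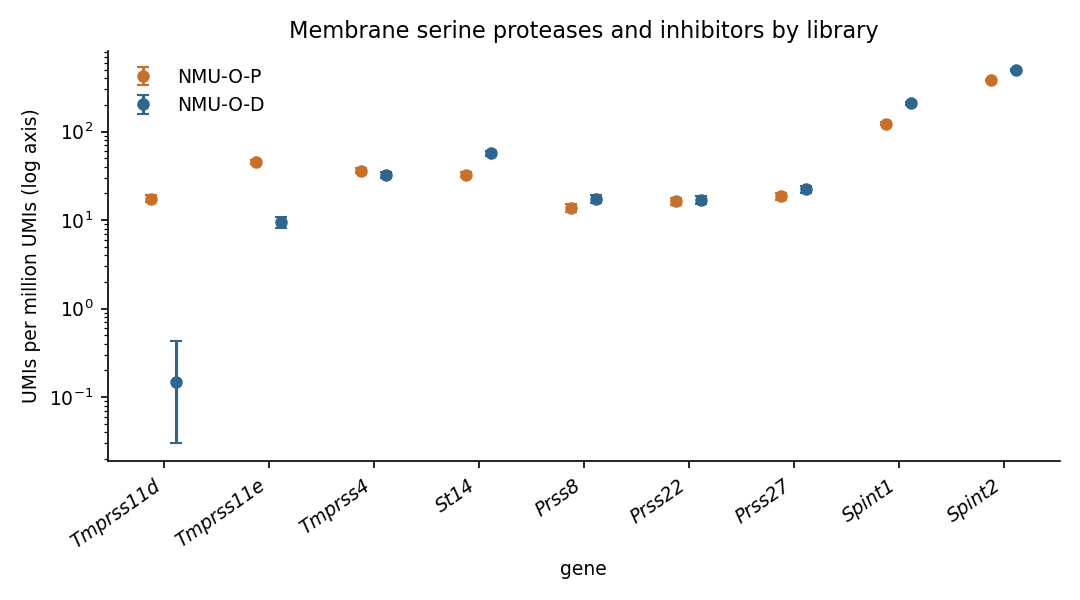
Level of 9 of the 10 genes (Klk10, with 8 UMIs in all, is left out) in CPM on a log axis, as 1 point per library with its 95% exact Poisson interval. Tmprss11d stands at 17.5 in NMU-O-P and 0.148 in NMU-O-D and Tmprss11e at 45.2 and 9.50, while the other 7 genes lie within 2-fold.

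Tmprss11d and Tmprss11e stand at 2 places of a run of 7 Tmprss11 genes on chromosome 5 (chr5:86231481-86745815). The run spans 514 kb and holds no other protein-coding gene of the count table. As a sum, the run was lower in NMU-O-D. Summed over the 7 genes there were 3767 UMIs (141 CPM) in NMU-O-P and 313 (15.4 CPM) in NMU-O-D, a log2 ratio of -3.20 (-3.37 to -3.03). All 5 genes of the run with at least 100 UMIs were at least 2-fold lower in NMU-O-D, compared with 4.73% of 10719 genes. That minimum was summed over both libraries, and of these genes only Tmprss11e reached it in NMU-O-D itself.

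Between the members stood Tmprss11a, with 320 UMIs in NMU-O-P and 4 in NMU-O-D, and Tmprss11g, with 1201 and 48, a log2 ratio of -4.25 (-4.70 to -3.83). Beside Tmprss11e stood Tmprss11b, with 549 and 61 UMIs and a ratio of -2.78 (-3.18 to -2.39). Tmprss11f had 26 and 4 UMIs, and Tmprss11c had 0 in both libraries. Within the run the ratios toward NMU-O-P were thus larger for Tmprss11d, Tmprss11a and Tmprss11g than for Tmprss11b and Tmprss11e, whose intervals did not reach those of the first 3 genes.

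On each side of the run, the nearest protein-coding gene with at least 100 UMIs had a ratio above 0. Both ratios lay below the median gene's shift of 0.42 log2 units. Uba6, which encodes a ubiquitin-activating enzyme, had 485 and 407 UMIs, a log2 ratio of 0.14 (-0.05 to 0.33). Ythdc1, a reader of methylated adenosine in RNA, had 2333 and 2286 UMIs and a ratio of 0.36. Next to Ythdc1, Ugt2b34, a glucuronosyltransferase of drug metabolism, had 500 UMIs in NMU-O-P and 5911 in NMU-O-D, a ratio of 3.96. Beyond Uba6, Stap1, with 38 and 17 UMIs, had a ratio of -0.77 (-1.68 to 0.09). These 4 flanking genes were named after their values were seen.

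**Figure D2:**
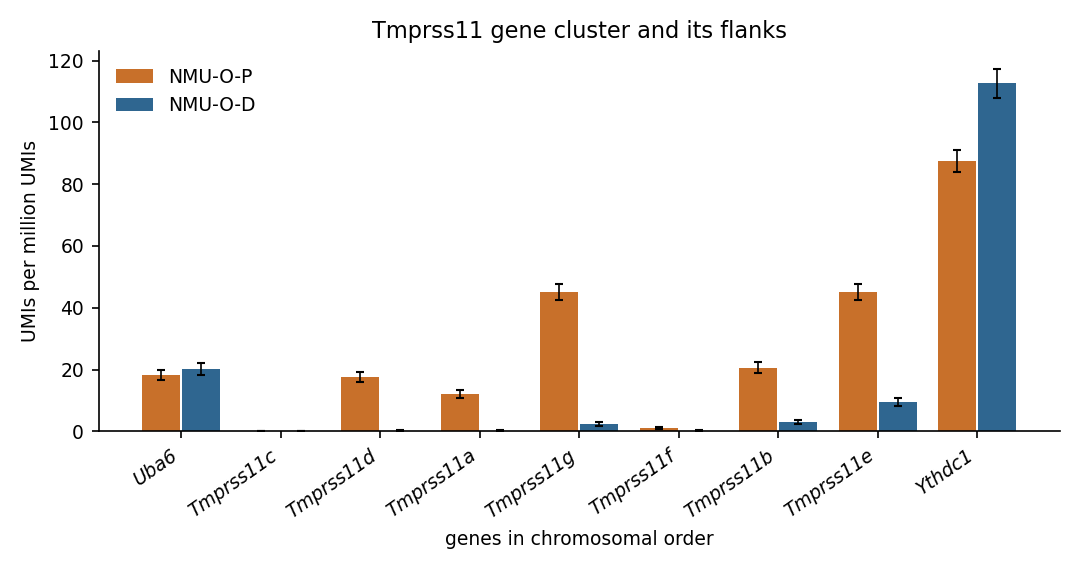
Levels of the 7 Tmprss11 genes and of the flanking genes Uba6 and Ythdc1, in chromosomal order (equal spacing, not to scale), as bars in CPM with 95% exact Poisson intervals. In NMU-O-D no gene of the run exceeds 9.50 (Tmprss11e), whereas in NMU-O-P Tmprss11g and Tmprss11e stand at 45.0 and 45.2.

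Among protein-coding genes Prss22 and Prss27 are neighbours too, 40.0 kb apart on chromosome 17, and their levels over whole libraries were alike. On the other side of Prss22 stood Prss30, with 1 UMI in each library. Prss36, the neighbour of Prss8, had 69 and 68 UMIs. Beside Klk10, Klk11 had 0 UMIs in both libraries and Klk9 had 4 and 2.

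Promoter sequences were available from RefSeq (GRCm38.p6) for 5 of the 10 genes and for 6 of the 7 Tmprss11 genes, each covering 250 bases before and 50 from the start of transcription. They are shown for Tmprss11d, the gene with the largest ratio (chr5:86373338-86373637, minus strand), and for the inhibitors Spint1 (chr2:119237110-119237409, plus strand) and Spint2 (chr7:29281928-29282227, minus strand). Capitals mark TGANTCA, the AP-1 letters with the middle base left free, and GGGCGG, the GC box, each searched on both strands. No capitals overlap between the motifs.
Tmprss11d: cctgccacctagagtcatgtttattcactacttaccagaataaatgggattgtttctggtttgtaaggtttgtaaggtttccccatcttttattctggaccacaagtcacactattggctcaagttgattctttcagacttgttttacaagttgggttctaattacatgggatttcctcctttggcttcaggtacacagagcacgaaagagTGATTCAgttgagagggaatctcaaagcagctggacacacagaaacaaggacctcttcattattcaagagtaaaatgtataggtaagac
Spint1: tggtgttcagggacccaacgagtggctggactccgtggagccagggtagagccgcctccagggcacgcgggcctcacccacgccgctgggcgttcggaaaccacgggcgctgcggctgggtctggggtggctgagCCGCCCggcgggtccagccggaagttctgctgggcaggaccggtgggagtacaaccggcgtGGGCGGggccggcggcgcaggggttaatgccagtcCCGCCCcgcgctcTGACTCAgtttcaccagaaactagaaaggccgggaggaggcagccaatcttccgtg
Spint2: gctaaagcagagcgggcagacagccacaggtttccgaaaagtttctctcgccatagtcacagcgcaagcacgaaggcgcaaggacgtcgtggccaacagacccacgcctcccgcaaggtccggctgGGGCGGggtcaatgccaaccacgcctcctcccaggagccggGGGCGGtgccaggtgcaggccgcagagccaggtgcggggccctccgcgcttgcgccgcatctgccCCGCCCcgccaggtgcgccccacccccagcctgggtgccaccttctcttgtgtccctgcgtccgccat
The Tmprss11d window held 1 match to TGANTCA, in the form TGATTCA, whose middle base is not that of the usual AP-1 site, beginning 39 bases before the start, no GC box and 1 CpG, at 40.0% G and C. The Spint1 window held 3 GC boxes, 28 CpGs and a TGANTCA match in the form TGACTCA beginning 6 bases before the start, and the Spint2 window held 3 GC boxes, 26 CpGs and no TGANTCA match. Among 32851 promoters of this length 7.81% held TGANTCA and 35.7% a GC box, and the median had 7 CpGs. The windows of Tmprss11a, Tmprss11g, Tmprss11b and Tmprss11c, with 2 to 4 CpGs each, held neither motif, whereas that of Tmprss11f held a TGANTCA match. The letters TATAAA and AACCNGTT, a TATA box and a site for Grainyhead-like factors, were searched too and were in none of these windows, compared with 13.6% and 2.09% of all promoters. A match is a run of letters and was not tested for binding.

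To place the genes in cell states, the cells of each library were clustered without the listed genes among the variable features. NMU-O-P gave 4 clusters and NMU-O-D gave 3. P cluster 0 (2583 cells, led by Ctla2a and Nbl1) and D cluster 1 (1309 cells, led by Acta2 and Cav1) had the highest median ratio of 7 basal markers. P cluster 3 (355 cells) was led by mitotic genes such as Ccna2 and Hmmr, and had 6 of the 7 basal markers above the rest. These 3 clusters formed the basal side. P cluster 1 (2540 cells) was led by Cyp2f2 and Agr2 and D cluster 0 (2543 cells) by Reg1 and Krt1. P cluster 2 (1340 cells) was led by the cornified envelope genes Sprr3 and Sprr2f, with the intermediate marker Psca among its 10 leading genes. D cluster 2 (1044 cells) was led by Ifit1bl1 and Ankrd1, with the uroplakins Upk3a and Upk3b, components of the urothelial plaque, among its 10 leading genes. Both clusters had their counted luminal markers above the rest of their library, 3 of 3 in P cluster 2 (median log2 ratio 3.93) and 5 of 5 in D cluster 2 (2.57). Squamous markers were higher for 5 of 8 (2.27) and 2 of 4 (0.32). The luminal list summed to 20.8 CPM in NMU-O-P and 1245 CPM in NMU-O-D. The leading genes of P cluster 2 and D cluster 2 differed, so that they were not taken as the same cell type.

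In both libraries most of the proteases and inhibitors were low on the basal side. The highest measured level of each gene with at least 100 UMIs in the library was in cluster 2. All 9 genes with at least 100 UMIs in NMU-O-P had their highest level in P cluster 2, as did 24.8% of all 9486 genes counted as well. In NMU-O-D all 8 such genes were highest in D cluster 2, compared with 28.8% of 9398 genes. The interval in cluster 2 overlapped that of another cluster for Tmprss11d in NMU-O-P and for Tmprss11e and Prss22 in NMU-O-D. Cells of these clusters were also deeper, with medians of 4065.5 and 5494.5 UMIs, compared with 2838 in P cluster 0 and 2677 in D cluster 1. For comparison at equal depth cells were thinned to 2100 UMIs, which left out 180 shallower cells of NMU-O-P and 479 of NMU-O-D, and D cluster 1 then held 1035 cells. In thinned cells the intervals of P clusters 0 and 2 stayed apart for all 9 genes, as for Spint1 with 53.0 and 224 CPM. Those of D clusters 1 and 2 stayed apart for all of the 8 genes except Prss8 and Prss22. Those of D clusters 0 and 2 overlapped for Tmprss11e, Tmprss4, Prss8, Prss22 and Spint2.

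**Figure D3:**
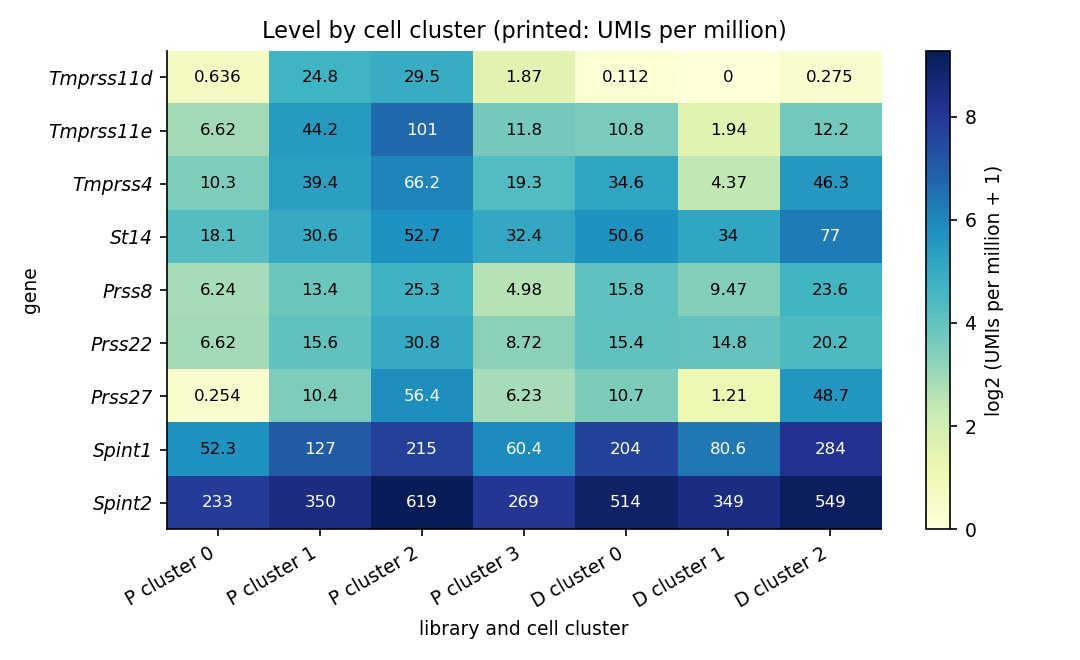
Level of 9 genes in each of the 7 cell clusters, with CPM printed in the cells and shaded as log2(CPM + 1). In each library the column of cluster 2 holds the highest level of each gene that had at least 100 UMIs there, for example 56.4 for Prss27 in P cluster 2 and 0.254 in P cluster 0.

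Between the basal side and the remaining cells of NMU-O-P, 7 of the 9 genes were at least 2-fold lower on the basal side, where 6.18% of 9486 genes were, and none was at least 2-fold higher, where 8.2% were. In NMU-O-D 5 of the 8 genes were at least 2-fold lower, where 6.96% of 9398 genes were, and none was 2-fold higher, where 6.03% were. The median log2 ratio of the genes was -1.62 in NMU-O-P and -1.30 in NMU-O-D, compared with 0.15 and 0.11 over all genes. D cluster 1 also held the higher level of Dcn, with a log2 ratio of 3.61 to the other cells, as did P cluster 0 with 3.42, and its part in these ratios was not tested.

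Prss27 had the steepest pattern that was found in both libraries. On the basal side of NMU-O-P it stood at 1.27 CPM and in the other cells at 28.0 CPM, a log2 ratio of -4.46 (-5.43 to -3.65), and in NMU-O-D at 1.21 and 27.7 CPM, a ratio of -4.51 (-6.14 to -3.28). Within the remaining cells it was concentrated in cluster 2, with 56.4 CPM in P cluster 2 compared with 10.4 in P cluster 1, and 48.7 CPM in D cluster 2 compared with 10.7 in D cluster 0. At 2100 UMIs per cell, 11.1% of the cells of P cluster 2 (9.48 to 12.9%) and 10.5% of D cluster 2 (8.70 to 12.5%) held a Prss27 UMI. In P cluster 0 it was found in 1 of 2454 cells.

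Tmprss11d had a ratio as low in NMU-O-P. It stood at 0.845 CPM on the basal side of NMU-O-P and at 26.6 CPM in the other cells, a log2 ratio of -4.98 (-6.20 to -3.99). Its levels in P clusters 1 and 2 were 24.8 and 29.5 CPM, so that it was less concentrated in cluster 2 than Prss27. In thinned cells the 2 levels were 21.8 CPM (18.0 to 26.2) and 34.7 CPM (28.1 to 42.3), and these intervals did not overlap. Its 3 UMIs in NMU-O-D were all outside the basal side. At 2100 UMIs per cell Tmprss11d was in 6.16% of the cells of P cluster 2, in 3.94% of P cluster 1 and in 0.0815% of P cluster 0. It was in 0 of 4417 cells of NMU-O-D, which allows a share of up to 0.0835% of cells with a UMI at that depth. Without thinning it was in 3 of 4896 cells of NMU-O-D (0.0613%, 0.0126 to 0.179%) and in 4.80% of those of NMU-O-P. A share of cells with a UMI does not limit how many cells express the gene.

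Tmprss11e stood at 7.50 CPM on the basal side of NMU-O-P and at 65.9 CPM elsewhere, and at 1.94 and 11.4 CPM in NMU-O-D, with log2 ratios of -3.13 and -2.56. Its highest level was 101 CPM in P cluster 2, where a UMI was found in 18.9% of cells at equal depth. Tmprss4 stood at 11.8 and 49.7 CPM in NMU-O-P and at 4.37 and 39.8 CPM in NMU-O-D, with ratios of -2.07 (-2.37 to -1.78) and -3.19 (-3.95 to -2.52). The 2 intervals of Tmprss4 did not overlap, but with finer clusters (resolution 0.4) the ratios were -1.89 and -2.06.

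Among the genes whose intervals lay below 0 in both libraries, St14 and Spint2 had the flattest patterns. St14 was at 20.5 and 39.1 CPM in NMU-O-P and at 34.0 and 62.5 CPM in NMU-O-D, ratios of -0.93 and -0.88. Spint2 was at 239 and 453 CPM and at 349 and 530 CPM, ratios of -0.92 and -0.60. Neither reached 2-fold. Spint1 was steeper, at 53.7 and 161 CPM in NMU-O-P and at 80.6 and 240 CPM in NMU-O-D, ratios of -1.58 and -1.57. A Spint1 UMI was found in 47.9% of the cells of D cluster 2 and in 13.6% of D cluster 1 at equal depth.

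Prss8 was at 6.02 and 17.9 CPM on and off the basal side of NMU-O-P and at 9.47 and 19.3 CPM in NMU-O-D, ratios of -1.58 and -1.03. The interval of the latter (-1.55 to -0.55) included values short of 2-fold. Prss22 differed between the libraries. It was at 6.97 and 21.4 CPM in NMU-O-P, a ratio of -1.62 (-2.02 to -1.24), and at 14.8 and 17.5 CPM in NMU-O-D, a ratio of -0.24 (-0.67 to 0.16). Prss22 is the gene whose 2 intervals lie farthest apart in the plot of basal-side ratios.

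**Figure D4:**
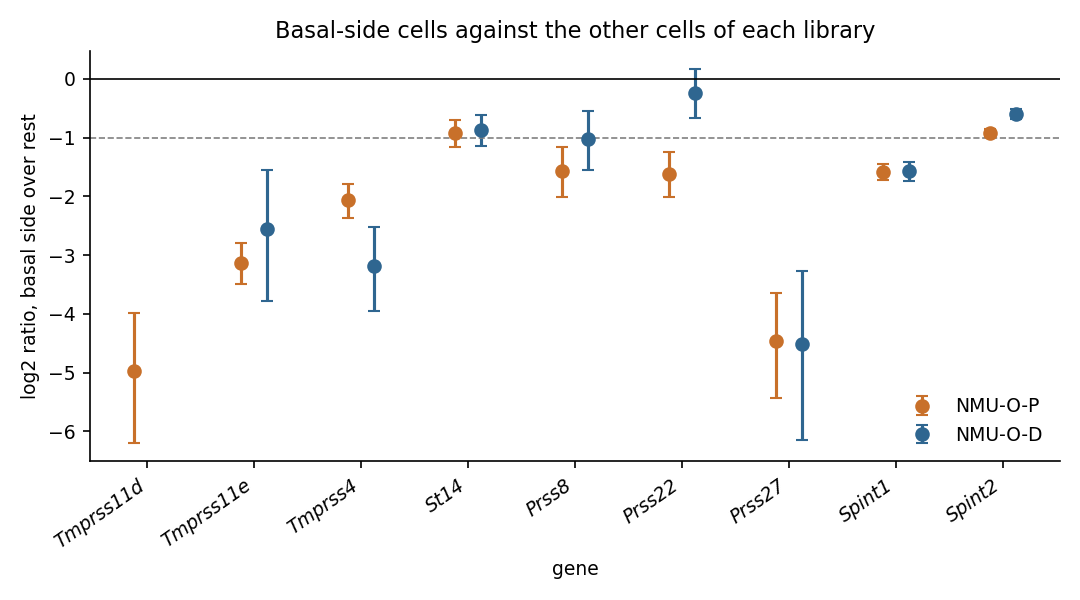
Log2 ratio of the level on the basal side to that in the other cells of the same library, 1 point per gene and library with its 95% exact binomial interval. The dashed line marks a 2-fold lower level. Every point lies below 0, from -0.24 for Prss22 in NMU-O-D to -4.98 for Tmprss11d in NMU-O-P, which has no point for NMU-O-D because it had 3 UMIs there.

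The libraries were also compared by cluster. The clusters set side by side had different leading genes and were not taken as 1 cell state. Between P cluster 0 and D cluster 1 Tmprss11e had a log2 ratio of -1.77 (-3.05 to -0.68), and off the basal side -2.53 (-2.76 to -2.30). St14 had 0.91 and 0.68 and Spint1 0.62 and 0.58, so that the sign of each was the same in both. For Tmprss4 the values were -1.24 (-2.06 to -0.49) and -0.32 (-0.47 to -0.17). The median gene stood at 0.52 and 0.43 in these comparisons. In thinned cells with neither a cycling profile nor a uroplakin UMI, 6144 in NMU-O-P and 2062 in NMU-O-D, Prss27 was found in 2.96% and 1.31% of cells, a log2 ratio in level of -1.35. In cells with a uroplakin UMI, 168 in NMU-O-P and 2343 in NMU-O-D, its level was 42.5 CPM (23.8 to 70.1, from 15 UMIs) and 32.7 CPM (27.9 to 38.2). These 2 intervals overlapped. The nearly equal level of Prss27 over whole libraries was thus not found in cells with neither mark. Leaving out uroplakin cells removed many more cells from NMU-O-D than from NMU-O-P, so those 2 sets of cells differ in make-up.

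The 2 inhibitors together gave more UMIs than the 8 proteases in every cluster. NMU-O-P held 4806 protease and 13348 inhibitor UMIs, so that proteases were 26.5% (25.8 to 27.1%) of the UMIs of the 10 genes, and NMU-O-D held 3163 and 14225, or 18.2% (17.6 to 18.8%). This corresponded to 2.78 inhibitor UMIs per protease UMI in NMU-O-P and 4.50 in NMU-O-D. These shares hold for the 10 genes only and depend on which proteases and inhibitors are listed. Outside the list, Tmprss2 had 1011 UMIs in NMU-O-P and 2927 in NMU-O-D, and Tmprss11g had 1201 and 48. Protease UMIs stood at 180 and 156 CPM, and inhibitor UMIs at 500 and 701 CPM. Tmprss11d and Tmprss11e gave 466 and 1205 of the protease UMIs in NMU-O-P and 3 and 193 in NMU-O-D. These are counts of transcripts, and neither protein amount nor activity was measured.

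By cluster the share of protease UMIs ran from 14.6% in P cluster 0 to 30.3% in P cluster 2, and from 13.4% in D cluster 1 to 21.5% in D cluster 2. The inhibitor UMIs per protease UMI were 5.85 and 2.30 in the first pair and 6.48 and 3.65 in the second. The ratio of Spint2 to Spint1 moved as well, from 4.46 in P cluster 0 to 2.88 in P cluster 2 and from 4.33 in D cluster 1 to 1.93 in D cluster 2. At 2100 UMIs per cell, 54.1% of NMU-O-P cells without a protease UMI held an inhibitor UMI, compared with 66.1% of those with UMIs of 1 protease, 76.2% with 2 and 82.0% of the 50 cells with at least 3. In NMU-O-D these shares were 71.7%, 77.9%, 78.7% and 93.3%, the last of them 14 of 15 cells. Cells of all clusters were pooled here, and clusters differed in both shares. A protease UMI was in 9.54% and an inhibitor UMI in 44.5% of cells of P cluster 0, compared with 52.0% and 80.4% in P cluster 2. In D clusters 1 and 2 they were in 12.1% and 56.6% and in 39.4% and 83.7%. Joint detection within a cluster was not tested.

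**Figure D5:**
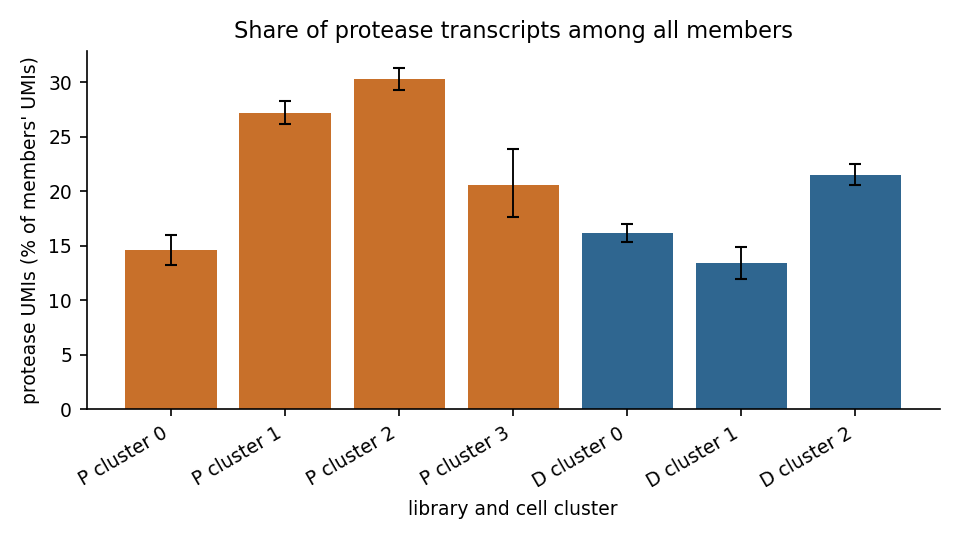
Share of the UMIs of the 10 genes that came from the 8 proteases, in percent, as 1 bar per cell cluster with 95% Clopper-Pearson intervals. Bars are lowest in P cluster 0 (14.6%) and D cluster 1 (13.4%) and highest in P cluster 2 (30.3%) and D cluster 2 (21.5%).

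Levels were also compared over 16 finer clusters of both libraries. These correlations describe clusters that share libraries, depth and scaling, and carry no test. Among the members Pearson's r of log2(CPM + 1) was highest for Prss8 and Spint1 (0.94) and for Spint1 and Spint2 (0.90), and St14 had 0.84 with Prss8 and 0.88 with Spint1. Tmprss11d had 0.82 with Tmprss11e but -0.16 with St14 and 0.01 with Spint1. Over all genes, the levels most like those of Tmprss11d were Rbp2 (0.98), a retinol-binding protein, Ablim3 and Csta1 (both 0.97). For Tmprss11e they were Cysrt1 (0.96), Gltp and Sgms2 (both 0.94), the latter genes of sphingolipid handling. Tmprss4 was nearest to Bik, Gipc2 and Kbtbd11, and St14 to Me1, Phlpp1 and Myh14. Prss8 was nearest to Rab11fip1 (0.97) and the claudin Cldn4 (0.96), and Prss27 to Pdzk1ip1 and Psca (both 0.95). Spint1 was nearest to Arpc1a, Cldn23 and Pparg (all 0.97), the last a transcription factor of urothelial differentiation, and Spint2 to Cmpk1, Prr13 and Mal (0.97, 0.97 and 0.96). For Prss22 the nearest genes, Mal2, Uap1 and Rtn3, had lower values, from 0.88 to 0.89. The remaining nearest genes were Cpeb4 for Prss8 and Ap1m2 for Prss27.

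Other genes of the same biochemistry were counted by list, each read against the 13.5% and 4.73% of all genes. Among other transmembrane proteases 5 of 17 listed genes had at least 100 UMIs. Tmprss2, known for priming viral entry proteins, was 2-fold higher in NMU-O-D with 1011 and 2927 UMIs (log2 ratio 1.93), while Tmprss11a, Tmprss11b and Tmprss11g were lower. Of 12 other kallikreins 4 had any UMI and none had 100. Among 23 other trypsin-like proteases 5 had 100 UMIs, and 1 was higher in NMU-O-D. This was Prss23, with 140 and 873 UMIs, which unlike the members was high on the basal side, at 172 CPM there and 10.2 CPM elsewhere in NMU-O-D.

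In the plasminogen system 5 of 8 genes were counted as well. Plaur, the urokinase receptor, was higher in NMU-O-D with 39 and 244 UMIs. The inhibitors of plasminogen activators Serpine2 and Serpinb2 were lower, with 766 and 224 UMIs and with 473 and 99. Among 20 serpins and other inhibitors 11 were counted. Serpinb9, an inhibitor of granzyme B, was higher (88 and 628 UMIs), as was Serpinb5 (maspin) with a log2 ratio of 1.02. The secreted inhibitor Slpi (569 and 34 UMIs), the skin protease inhibitor Spink5 (350 and 41) and the cystatin Cst6 (129 and 34) were lower. Spink5 stood at 0.634 CPM on the basal side of NMU-O-P and at 19.98 CPM elsewhere, while Slpi was at 41.5 and 10.2 CPM.

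Among 16 substrates and receptors 12 had at least 100 UMIs, of which 4 were 2-fold higher and 3 lower in NMU-O-D. Scnn1a and Scnn1b, subunits of the epithelial sodium channel that such proteases cleave, had opposite ratios, with 27 and 137 UMIs for Scnn1a and 102 and 5 for Scnn1b. The claudin Cldn7, a tight junction protein, had a log2 ratio of 1.14, the hepatocyte growth factor receptor Met 1.01 and the thrombin receptor F2r 1.07. These 3 and Serpinb5 exceeded the 2-fold line by less than the shift of the median gene. Mst1, the precursor of macrophage-stimulating protein, was lower with 322 and 106 UMIs. Flg, the filaggrin precursor processed in cornifying epithelia, was lower with 5651 and 1.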

How the data were processed

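Single-cell RNA sequencing (10x Genomics 3′, version 3 chemistry) was analysed from 1 library of proliferative and 1 of differentiated organoids. According to the methods and the submitters' processing notes, reads were demultiplexed with bcl2fastq 2.19.0 and counted with Cell Ranger 3.0.2 against GRCm38. The values the authors deposited were raw UMI counts per gene and barcode with no normalization, and they were used as deposited. Cells with over 800 genes and at most 12% mitochondrial counts were kept. UMIs were summed per library or cluster and given per 1000000 UMIs (CPM), with 95% exact Poisson intervals for levels, Clopper-Pearson intervals for shares and exact binomial intervals for ratios. A gene was counted as different at a 2-fold ratio with at least 100 UMIs. No p-value was computed. The ratio code was checked on simulated counts. Clusters came from Seurat 5.3.0 in R 4.3.3 (2000 variable features less the listed genes, 25 and 21 components, resolution 0.2, and 0.8 for the finer clusters, of at least 50 cells). The basal side comprised clusters with most of 7 basal markers above the rest and their median ratio above those of luminal and squamous markers. A cell was called cycling with UMIs of at least 2 of 12 cycling genes. Scrublet, run in scanpy 1.11.5 under Python 3.11.15, marked 0 cells in both libraries and so did not work, and doublets were not removed.

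The members, gene lists and tests were chosen with earlier results of these data known. The genes named were the 10 members, listed genes with at least 100 UMIs and a 2-fold ratio, and the 3 genes most alike in level. Listed chromosomal neighbours, sought among protein-coding genes only, were named too. Tmprss11e, Tmprss4, St14, Prss8 and Klk10 overlap genes on the opposite strand, and the 10x chemistry keeps strand. Alternatives covered cell filters, scaling, thinning, clustering resolution and the minimum count.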

Additional observations from a re-analysis of the deposited data

Results flagged for a closer look

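Prss22 had ratios of opposite sign in 2 comparisons of clusters, which had different leading genes. From P cluster 0 to D cluster 1 its level had a log2 ratio, NMU-O-D over NMU-O-P, of 1.16 (0.61 to 1.73), whereas off the basal side the ratio was -0.29 (-0.52 to -0.06). With 1 library per condition the difference was not tested beyond counting error.

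Barcodes left out by the cell filter (1376 in NMU-O-P and 2079 in NMU-O-D) also held UMIs of these genes. Per 1000000 non-mitochondrial UMIs, St14 stood at 83.0 in the left-out barcodes of NMU-O-D and 38.2 in those of NMU-O-P, Spint1 at 223 and 138, and both inhibitors together at 613 and 483. The 8 proteases together stood at 191 and 203. Prss8 was lower in those of NMU-O-D, at 16.9 (11.8 to 23.5) and 30.1 (23.0 to 38.8), whereas kept cells had 18.7 and 14.6. Tmprss11d had 1 UMI in the left-out barcodes of NMU-O-D and 35 in those of NMU-O-P.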

How the results depend on the processing

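The signs of the log2 ratios between libraries were kept for Tmprss11d, Tmprss11e, Tmprss4, St14 and Spint1 under every alternative that gave a ratio. Tmprss11e lay between -2.75 and -1.98 and St14 between 0.38 and 0.86. Tmprss11d gave no ratio in cells with neither cycling nor uroplakin transcripts, where it had 0 UMIs in NMU-O-D. The sign turned in 2 settings for Prss8, 4 for Prss22, 3 for Prss27 and 1 for Spint2, with Prss27 lowest, at -1.35, in cells with neither cycling nor uroplakin transcripts. No sign turned for the basal side against the rest. With a minimum of 500 UMIs over both libraries, 1 gene in place of 2 was at least 2-fold lower in NMU-O-D, because Tmprss11d has fewer, and 3 were in cells with neither cycling nor uroplakin transcripts. Of the other counts of genes, none moved by over 1.5 times. Leaving out the 6% of cells with the highest doublet scores, an alternative chosen after seeing the data, turned no sign. The planned run without called doublets could not be made, since none was called. No paired analysis was possible because each condition has 1 library. At these depths Klk10 and 1 Tmprss11 gene with 0 UMIs could not be compared.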

Other observations

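Prss32, a trypsin-like protease outside the 10 genes, was named after its values were seen. Its levels were close to those of Prss27 by library and by basal side, but not by cluster. It had 471 UMIs in NMU-O-P and 433 in NMU-O-D, beside 494 and 454 for Prss27. On the basal side of NMU-O-P Prss32 stood at 1.27 CPM and in the other cells at 26.7 CPM, and in NMU-O-D at 1.70 and 26.3 CPM, beside 1.27 and 28.0 and 1.21 and 27.7 CPM for Prss27. In P clusters 1 and 2 Prss32 stood at 23.1 and 32.4 CPM, beside 10.4 and 56.4 for Prss27. In D clusters 0 and 2 it stood at 27.6 and 24.7 CPM, beside 10.7 and 48.7. Prss32 thus lacked the concentration of Prss27 in cluster 2. No 56-base run of the Prss27 transcripts was found in another gene.

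Htra1, a secreted serine protease also named after its values were seen, had the opposite pattern to the members, with 123 CPM on the basal side of NMU-O-P and 12.9 CPM elsewhere, and 439 and 14.7 CPM in NMU-O-D.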
